A study of Mus musculus with 19 samples.

Results

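Kainate and delta receptors are branches of the ionotropic glutamate receptor family, in which each channel is built of 4 subunits. The kainate receptor subunits encoded by Grik1, Grik2 and Grik3 can form channels by themselves, while those encoded by Grik4 and Grik5 bind agonist with high affinity but reach the membrane as channels only together with them. In the hippocampus kainate receptors are known for slow synaptic currents at mossy fibre synapses and for control of transmitter release. Delta receptors resemble the other glutamate receptors in sequence but are not opened by glutamate in the usual way, and they act at synapses as binding partners of cerebellins, which link them to neurexins on the axon.

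The genes described here were the 5 kainate receptor subunit genes Grik1, Grik2, Grik3, Grik4 and Grik5 and the delta receptor gene Grid1, chosen by name. They were 6 of the 18193 genes measured and were read by 10 of 45037 probe sets. Grik1, Grik2, Grik3 and Grid1 had 2 probe sets each and Grik4 and Grik5 had 1 each. All 6 symbols matched RefSeq by gene identifier. RNA came from dendrites severed from hippocampal neurons of E18 mouse embryos after 14 days in primary culture, without treatment, and each array held 1 pool of dendrites. For Balb/c there were 5 arrays (2 with 100 dendrites, 1 with 200 and 2 with 400), and for C57BL/6 there were 14 (4 with 100, 5 with 200 and 5 with 400). The study calls the pools biological replicates without saying whether each had its own culture or animal, and p-values here thus cover only the variation from pool to pool. The labels call the cells pyramidal neurons, and the study states that axons could not be told from dendrites by shape. An array is named here by strain, pool size and replicate, so that C57BL/6 200-1 is replicate 1 of the 200-dendrite pools of C57BL/6.

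Values are log2 expression per probe set, and a gene is the median of its probe sets, which for a gene with 2 probe sets is their mean. A difference is Balb/c minus C57BL/6 in log2 units, tested with limma over all 19 arrays and called at a Benjamini-Hochberg adjusted p under 0.05. Because the median over all genes was 0.216, differences are also given relative to that median gene. In that test 5910 genes (32.5%) were called, 3837 of them higher in Balb/c (21.1%) and 2073 lower (11.4%), and 700 genes (3.85%) passed the study's stricter threshold of 0.001. The split depended on scaling, with 2765 higher and 2522 lower after quantile normalisation and 2590 higher and 2651 lower after median centring with range scaling.

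Several measures of the arrays themselves moved with strain. Signal in 80 probe sets of olfactory and vomeronasal receptor genes, which serve here as a scale for background, had array medians of 6.59 to 6.86 in Balb/c and 5.72 to 6.64 in C57BL/6, and 31 of these probe sets were called higher in Balb/c and 0 lower (limma). For Actb, the 3′ control signal minus the 5′ control signal was -0.69 to 2.27 in Balb/c and 1.17 to 5.56 in C57BL/6. C57BL/6 200-1 and 400-1 lay with Balb/c in both measures, at 6.64 and 6.56 for the receptor median and at 1.17 and 1.65 for Actb, while the other 12 C57BL/6 arrays spanned 5.72 to 6.32 and 3.27 to 5.56. The 3′ minus 5′ signal of Gapdh, the other such control, did not move with strain. It was 1.48 to 4.72 in Balb/c (median 3.37) and 2.39 to 5.00 in C57BL/6 (median 3.25). The deposited columns also differed in number format. The 5 Balb/c arrays and 4 of C57BL/6 (100-1, 100-2, 200-1 and 400-1) carried up to 14 decimals, and the other 10 arrays, all C57BL/6, carried up to 9. Of the cell type markers, 3 of 5 pyramidal neuron genes were lower in Balb/c and 1 higher, with summed log2 levels of 29.2 to 38.9 in Balb/c and 34.3 to 42.3 in C57BL/6. Of 4 interneuron genes 2 were lower and 0 higher, with sums of 28.1 to 31.6 in Balb/c and 30.5 to 37.5 in C57BL/6. Of 4 microglia genes 2 were higher and 0 lower, with sums of 29.0 to 32.3 in Balb/c and 24.6 to 29.2 in C57BL/6. Of 3 oligodendrocyte genes 2 were higher and 0 lower, with sums of 16.03 to 20.1 in Balb/c and 14.8 to 17.8 in C57BL/6. Of 4 astrocyte genes 0 were called, with sums of 24.0 to 28.8 in Balb/c and 23.9 to 29.8 in C57BL/6. No marker was listed at 0, and no pyramidal, astrocyte, oligodendrocyte or microglia gene stood above the background scale on every array of a strain. Whether background, RNA quality or other cells had a part in the receptor results was not tested. Number format was taken as a block in fits given below, but its part as a cause was not tested. In pooled RNA, a smaller share of dendrites of 1 kind and less RNA per dendrite cannot be told apart.

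As gene medians, Grik1 and Grik3 were called lower in Balb/c dendrites, and no member was called higher. Neither call was kept with the brightest probe set standing for the gene, or with the number format of the columns as a block. Grik3 differed most, by -1.43 ± 0.391 (SE, adjusted p = 0.00863 by limma), and Grik1 differed by -1.02 ± 0.337 (adjusted p = 0.0239). Grik2, Grik4, Grik5 and Grid1 were not called. Thus 2 of 6 members were called, both lower, where 11.4% of all genes were called lower, and 0 members passed 0.001. The members' median difference was -0.43, or -0.64 relative to the median gene, and each of the 6 lay below the median gene, also under both other scalings. Several other settings did not keep this. Grik2 lay 0.16 and Grik4 0.21 above the median gene with the number format of the columns as a block. Grik4 lay 0.53 above it within pools of 100 dendrites, and 0.13 above it with pool size and replicate number as a block. Grid1 lay 0.12 above it without C57BL/6 200-1 and 400-1, 0.15 without Balb/c 100-1 and 0.13 without Balb/c 400-1. It lay 0.094 above it among genes with a mean above the median of the means. In some other fits that left out 1 array, Grik4 or Grid1 lay slightly above it.

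**Figure D1:**
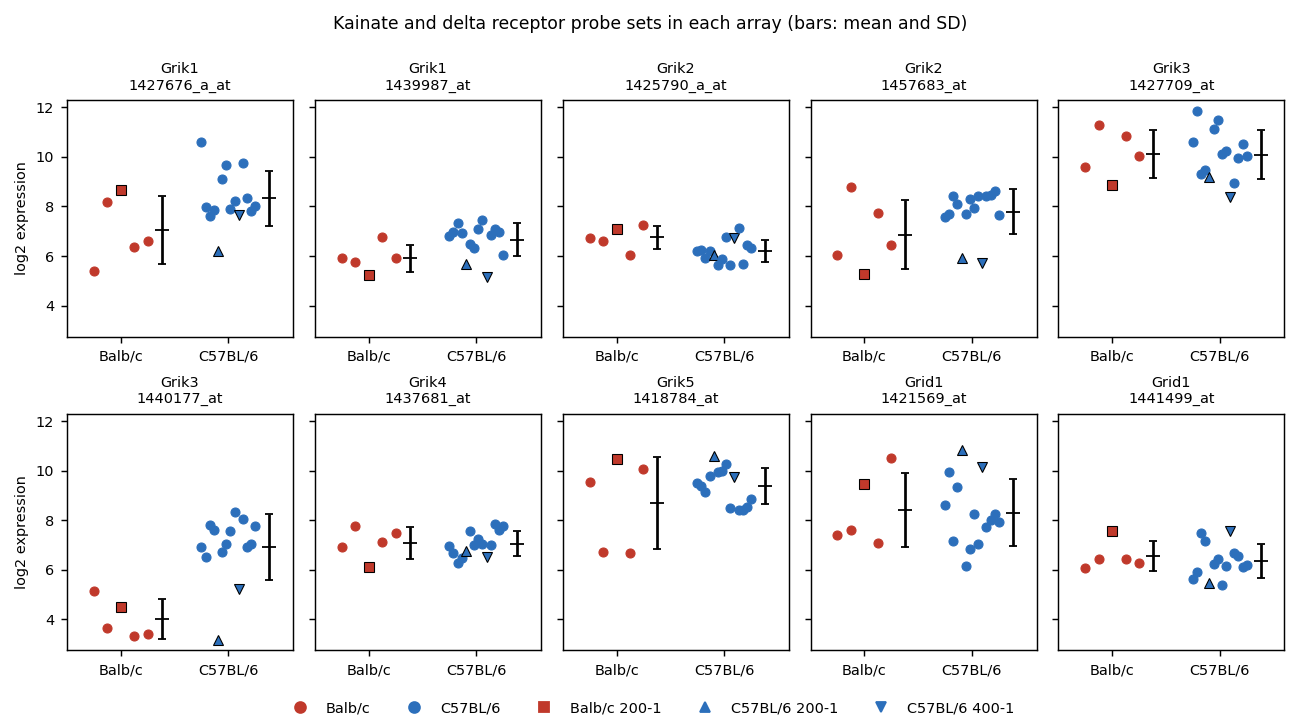
Log2 expression (y axis) of the 10 probe sets in each of 5 Balb/c arrays (red) and 14 C57BL/6 arrays (blue), with the mean and SD of each strain as black bars. Balb/c 200-1, C57BL/6 200-1 and C57BL/6 400-1 have their own symbols. In the Grik3 panel of 1440177_at, the 5 Balb/c arrays sit between 3.35 and 5.16, C57BL/6 200-1 at 3.18, and the 12 C57BL/6 arrays with round symbols at 6.50 or higher.

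Grik3 encodes GluK3, a subunit that needs more glutamate than its relatives to open. Its gene level was 7.38 and 7.48 in the Balb/c pools of 100 dendrites, 6.69 in the pool of 200 and 7.10 and 6.72 in the pools of 400, against a lowest value of 6.18, a median of 8.77 and a highest value of 9.30 in C57BL/6. All 5 Balb/c arrays lay below 12 of the 14 C57BL/6 arrays. The groups overlapped only through C57BL/6 200-1 at 6.18 and 400-1 at 6.81, while the next C57BL/6 array stood at 8.46. Means were 7.07 ± 0.364 in Balb/c (SD, n = 5) and 8.50 ± 0.898 in C57BL/6 (SD, n = 14). They differed by -1.43 (two-sided exact permutation p = 0.00335 over 11628 ways to choose the Balb/c arrays), or by -1.64 relative to the median gene. Without C57BL/6 200-1 and 400-1 the difference was -1.76 (adjusted p = 4.8e-06 by limma). That pair was chosen after the values were seen and held the only overlap, so a smaller p follows from the choice. Over all genes, limma called 7385 without the pair and 5910 with it.

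The difference in Grik3 lay in 1 of its 2 probe sets. Probe set 1440177_at read 5.16 and 3.65 in the Balb/c pools of 100, 4.50 in the pool of 200 and 3.35 and 3.41 in the pools of 400, against 3.18 at the lowest, 7.03 at the median and 8.35 at the highest in C57BL/6. Here 13 of 14 C57BL/6 arrays stood above the highest Balb/c array, and the one that did not was 200-1. The difference was -2.90 ± 0.576 (adjusted p = 0.0011 by limma over all probe sets), the only one of the 10 member probe sets to be called, where 32.9% of all probe sets were called, 21.3% higher and 11.6% lower. Probe set 1427709_at instead read 9.60, 11.31, 8.88, 10.85 and 10.03 in the 5 Balb/c arrays, against 8.39 to 11.85 with a median of 10.07 in C57BL/6. Its difference was 0.04 ± 0.474 (adjusted p = 0.953), with a sign that turned negative under median centring with range scaling, and the strains overlapped over almost their whole range.

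Against the background scale the Grik3 probe sets stood apart. Probe set 1427709_at was above the 95th percentile of the olfactory and vomeronasal receptor probe sets in 3 of 5 Balb/c arrays and 12 of 14 C57BL/6 arrays. Probe set 1440177_at exceeded that percentile in 0 arrays of either strain, and exceeded the median of those probe sets in 0 Balb/c arrays and 12 C57BL/6 arrays. The lower Grik3 level in Balb/c thus lay in a probe set whose signal did not leave the range of background in any array.

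The distance between the Grik3 probe sets within an array is given as a description, since it was chosen after their values were seen and 1440177_at lay within the range of background. Probe set 1427709_at minus 1440177_at averaged 6.12 ± 1.61 in Balb/c (SD, range 4.39 to 7.66) and 3.18 ± 1.49 in C57BL/6 (0.91 to 6.00). The ranges of the strains overlapped between 4.39 and 6.00.

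**Figure D2:**
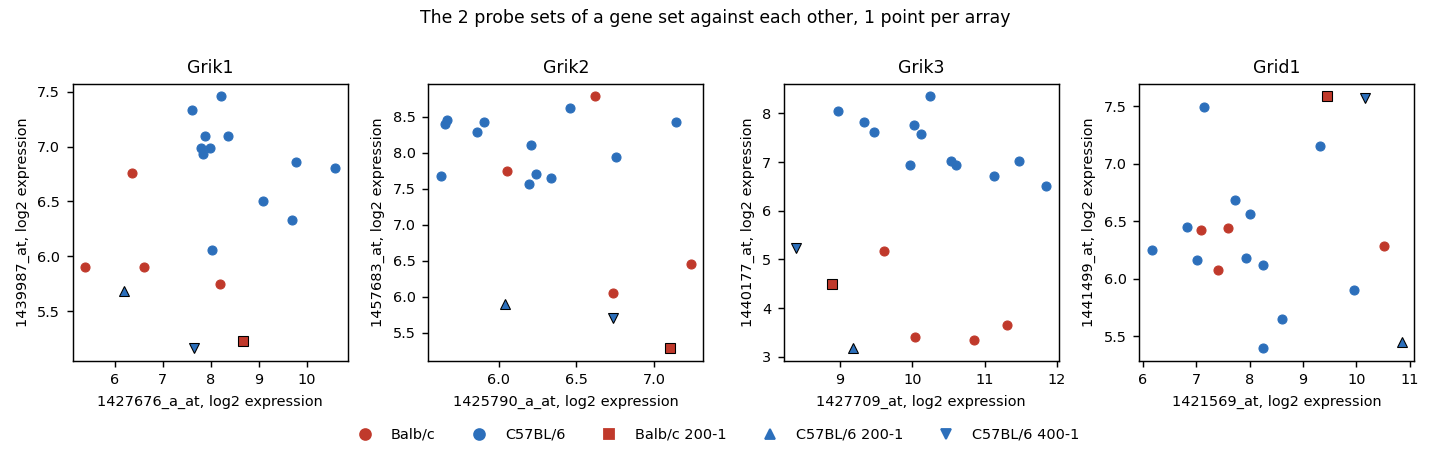
Each panel sets the probe sets of 1 gene against each other in log2 expression, with 1 point per array (Balb/c red, C57BL/6 blue). In the Grik3 panel the 5 Balb/c arrays lie at 5.16 or lower on the y axis while spreading over 8.88 to 11.31 on the x axis, and 12 C57BL/6 arrays lie at 6.50 or higher.

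Grik1 encodes GluK1, a subunit found mostly on interneurons in the hippocampus. Its gene level was 5.65 and 6.97 in the Balb/c pools of 100, 6.95 in the pool of 200 and 6.56 and 6.26 in the pools of 400, against 5.94 at the lowest, 7.49 at the median and 8.70 at the highest in C57BL/6. As for Grik3, 12 of 14 C57BL/6 arrays stood above the highest Balb/c array, and the arrays within the Balb/c range were 200-1 at 5.94 and 400-1 at 6.41. Means were 6.48 ± 0.552 in Balb/c (n = 5) and 7.50 ± 0.705 in C57BL/6 (n = 14). They differed by -1.02 (exact permutation p = 0.00989), or by -1.24 relative to the median gene.

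Both Grik1 probe sets were lower on average in Balb/c, though neither passed the test by itself in the values as deposited. Probe set 1427676_a_at read 5.39, 8.20, 8.68, 6.36 and 6.61 in Balb/c, against 6.20 to 10.6 with a median of 8.01 in C57BL/6. Its difference was -1.29 ± 0.557 (adjusted p = 0.0775), and it exceeded the 95th percentile of background in 0 Balb/c and 4 C57BL/6 arrays. Probe set 1439987_at read 5.90, 5.75, 5.23, 6.76 and 5.90 in Balb/c, against 5.16 to 7.46 with a median of 6.90 in C57BL/6. Its difference was -0.75 ± 0.332 (adjusted p = 0.0832), and it exceeded that percentile in 0 of 19 arrays. It was called after quantile normalisation (-0.93, adjusted p = 0.0369) and after median centring with range scaling (-0.95, adjusted p = 0.0336). Without C57BL/6 200-1 and 400-1 both probe sets were called, 1427676_a_at at -1.53 (adjusted p = 0.0254) and 1439987_at at -0.96 (adjusted p = 0.00709). That pair was chosen after the values were seen, so these values are given as a description.

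The Grik1 call was kept in 17 of the 19 fits that left out 1 array and lost in 2. Without Balb/c 100-1, the lowest array of all, the difference was -0.81 (adjusted p = 0.0878 by limma), and without Balb/c 400-2 it was -0.97 (adjusted p = 0.0568). Without C57BL/6 200-1 and 400-1 it was -1.24 (adjusted p = 0.00105). That pair was chosen after the values were seen and lay within the Balb/c range, so the smaller p follows from the choice. The Grik3 call was kept in each of the 19 fits that left out 1 array, with differences of -1.61 to -1.33 and adjusted p of at most 0.026.

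Neither call was kept when the number format of the columns was taken into account. With format as a block both differences were -0.66, at adjusted p = 0.379 for Grik1 and 0.397 for Grik3, in a fit that called 350 genes. Within the 9 arrays of the long format the same -0.66 came with exact permutation p = 0.349 for Grik1 and 0.357 for Grik3 over 126 ways, and limma called 0 genes there (2367 at an unadjusted p under 0.05). The 4 C57BL/6 arrays of that format held the pair that lay with Balb/c. In Grik3 they read 8.77 for 100-1 and 9.18 for 100-2, and 6.18 for 200-1 and 6.81 for 400-1, against 6.69 to 7.48 in Balb/c. The 1440177_at probe set of Grik3 read 6.93, 6.50, 3.18 and 5.23 in those 4 arrays, against 3.35 to 5.16 in Balb/c, and its difference was -1.45 ± 0.575 with format as a block (adjusted p = 0.154).

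Within pools of 1 size the Grik3 difference was -1.34 at 100 dendrites (2 Balb/c and 4 C57BL/6 arrays, adjusted p = 0.0485) and -1.38 at 400 dendrites (2 and 5 arrays, adjusted p = 0.0968). The Grik1 difference was -1.45 at 100 dendrites (adjusted p = 0.111) and -0.97 at 400 dendrites (adjusted p = 0.179). The sign was the same at both sizes for both genes.

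Grik2 encodes GluK2, the kainate receptor subunit of pyramidal cells at mossy fibre synapses. Its gene level was 6.39 and 7.71 in the Balb/c pools of 100, 6.20 in the pool of 200 and 6.90 and 6.84 in the pools of 400, against 5.97 to 7.78 with a median of 7.05 in C57BL/6. The groups overlapped throughout, with means of 6.81 ± 0.583 in Balb/c and 6.99 ± 0.472 in C57BL/6 and a difference of -0.18 ± 0.27 (adjusted p = 0.626 by limma). It turned to 0.30 with the number format as a block (adjusted p = 0.609).

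The near-equal gene level of Grik2 averaged probe sets with opposite signs. Probe set 1425790_a_at read 6.73, 6.62, 7.10, 6.06 and 7.23 in Balb/c, against 5.63 to 7.14 with a median of 6.20 in C57BL/6, and differed by 0.55 ± 0.269 (adjusted p = 0.119). Probe set 1457683_at read 6.05, 8.79, 5.29, 7.75 and 6.45 in Balb/c, against 5.71 to 8.62 with a median of 8.03 in C57BL/6, and differed by -0.91 ± 0.5 (adjusted p = 0.162). Neither was called. Only 1 reading of either probe set, of 1457683_at in C57BL/6, exceeded the 95th percentile of background. The 2 lowest C57BL/6 arrays for 1457683_at were 400-1 at 5.71 and 200-1 at 5.90, and without them its difference was -1.24 (adjusted p = 0.0174), while without Balb/c 100-2, its highest array, it was -1.39 (adjusted p = 0.0423). The C57BL/6 pair was chosen after the values were seen, so a lower p without it follows from the choice. The distance from 1425790_a_at to 1457683_at averaged 0.12 ± 1.72 in Balb/c and 1.58 ± 1.08 in C57BL/6, given as a description for the same reason.

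Of the high-affinity subunits, Grik5 varied widely among Balb/c pools. Grik5 encodes GluK5, the common partner of GluK2 in brain. Its 1 probe set read 9.54 and 6.74 in the Balb/c pools of 100, 10.47 in the pool of 200 and 6.66 and 10.08 in the pools of 400, against 8.42 at the lowest, 9.44 at the median and 10.58 at the highest in C57BL/6. Of the 5, 3 exceeded the mean of C57BL/6 and 2, one of 100 and one of 400 dendrites, lay below every C57BL/6 array. The SD was 1.85 in Balb/c and 0.728 in C57BL/6, a ratio of 2.55 that was not tested. The means of 8.70 in Balb/c and 9.37 in C57BL/6 differed by -0.67 ± 0.516 (adjusted p = 0.327). That value depended on single arrays, at -0.16 or -0.18 when the low array 400-1 or 100-2 of Balb/c was left out, and -1.01 or -1.11 when the high array 400-2 or 200-1 was left out, and was not called in any of these fits. The probe set exceeded the 95th percentile of background in 2 of 5 Balb/c and 9 of 14 C57BL/6 arrays.

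Grik4, which encodes GluK4, was not called. Its 1 probe set read 6.93 and 7.77 in the Balb/c pools of 100, 6.09 in the pool of 200 and 7.11 and 7.48 in the pools of 400, against 6.28 at the lowest, 7.01 at the median and 7.87 at the highest in C57BL/6. The difference was 0.02 ± 0.284 (adjusted p = 0.969), a value whose sign turned to -0.16 under quantile normalisation and to -0.15 under median centring with range scaling. It exceeded the 95th percentile of background in 0 of 19 arrays and the background median in 17.

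Grid1, which encodes the delta receptor GluD1, was not called either. Its gene level was 6.74 and 7.02 in the Balb/c pools of 100, 8.52 in the pool of 200 and 6.76 and 8.40 in the pools of 400, against 6.21 at the lowest, 7.20 at the median and 8.87 at the highest in C57BL/6. The high Balb/c arrays were 200-1 and 400-2, and the high C57BL/6 arrays were 400-1 at 8.87, 100-4 at 8.24 and 200-1 at 8.15. The difference was 0.15 ± 0.377 (adjusted p = 0.779), and it turned to -0.01 under quantile normalisation, -0.02 under median centring with range scaling, -0.54 with the number format as a block (adjusted p = 0.493) and -0.78 within pools of 100 dendrites (adjusted p = 0.248).

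The Grid1 probe sets had differences of 0.11 ± 0.651 for 1421569_at (adjusted p = 0.916) and 0.20 ± 0.346 for 1441499_at (adjusted p = 0.68), the first of which turned negative under both of those scalings and was -1.49 with the format block (adjusted p = 0.199). Probe set 1421569_at spanned 7.09 to 10.52 in Balb/c and 6.17 to 10.85 in C57BL/6, and exceeded the 95th percentile of background in 2 Balb/c and 4 C57BL/6 arrays. Probe set 1441499_at spanned 6.08 to 7.59 in Balb/c and 5.40 to 7.57 in C57BL/6 and exceeded it in 0 arrays. C57BL/6 200-1, the highest array for 1421569_at, was 5.45 and thus among the lowest for 1441499_at.

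**Figure D3:**
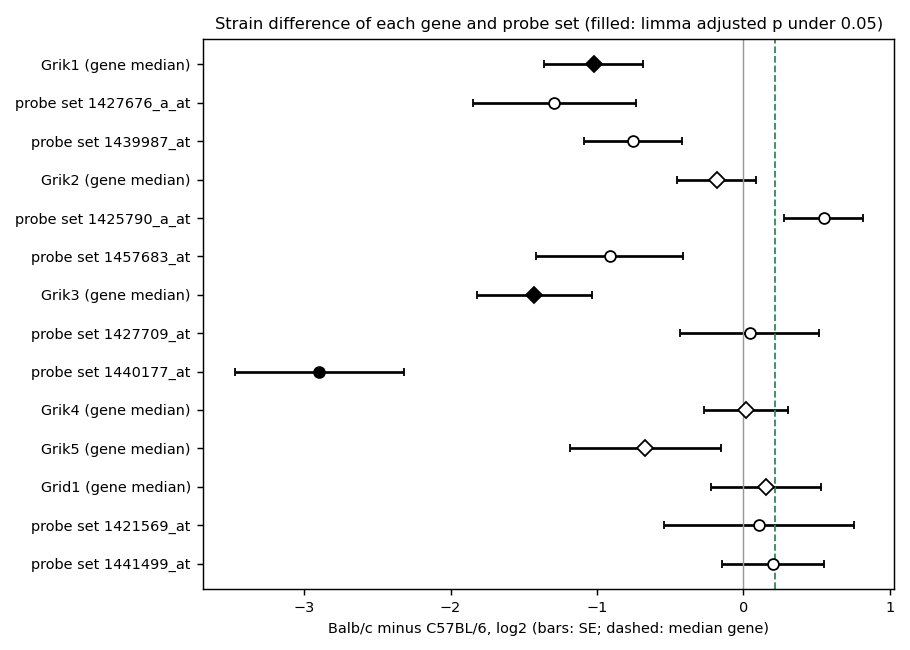
Balb/c minus C57BL/6 in log2 units (x axis, with SE) for each gene (diamonds) and for each probe set of the genes with 2 (circles), filled where the limma adjusted p was under 0.05, with the difference of the median gene (0.216) dashed. The filled symbols are Grik1 at -1.02, Grik3 at -1.43 and the Grik3 probe set 1440177_at at -2.90.

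Pool size was the other labelled factor. No member passed a test of it, and slopes per doubling of dendrites, with strain as a covariate, lay between -0.24 for Grik3 and 0.25 for Grik4, with adjusted p of 0.959 or more. Over all genes limma called 0 slopes (0%, 850 at an unadjusted p under 0.05), 0 interactions of strain and pool size (0%, 690 unadjusted) and 0 differences between 400 and 100 dendrites in C57BL/6 (0%, 1053 unadjusted). Among the members, the unadjusted count was 0 for slopes, 0 for interactions and 1 for 400 against 100, which was Grik4.

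In C57BL/6, Grik4 averaged 6.60 ± 0.287 at 100 dendrites (SD, n = 4), 7.13 ± 0.299 at 200 (n = 5) and 7.36 ± 0.583 at 400 (n = 5). At 400 dendrites 4 of 5 arrays stood above all 4 arrays at 100, the exception being 400-1 at 6.50. The difference of 0.76 ± 0.305 between 400 and 100 dendrites did not pass (adjusted p = 0.856 by limma, two-sided exact permutation p = 0.0635 over 126 ways). In Balb/c, Grik4 averaged 7.35 at 100 dendrites, was 6.09 in the array of 200 and averaged 7.30 at 400. The step between 200 and 400 dendrites in C57BL/6 and that between 100 and 400 in Balb/c were within the spread between arrays.

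The other members had no common order of pool sizes. Grik5 averaged 9.46 ± 0.259 at 100 dendrites, 9.86 ± 0.8 at 200 and 8.80 ± 0.559 at 400 in C57BL/6, so that 400 was lowest, by -0.66 ± 0.385 against 100 (adjusted p = 0.899, exact permutation p = 0.0794). Grid1 averaged 7.66 ± 0.519 at 100, 6.88 ± 0.744 at 200 and 7.52 ± 0.757 at 400 in C57BL/6. Here the pools of 200 were lowest, though 200-1 at 8.15 lay far above the other 4, which reached 6.82. Grik1 averaged 7.76, 7.41 and 7.38 at 100, 200 and 400 dendrites in C57BL/6, Grik2 averaged 7.05, 6.82 and 7.12, and Grik3 averaged 8.76, 8.50 and 8.29. For these 3 genes each step was smaller than the largest SD of the groups, 0.845 for Grik1, 0.601 for Grik2 and 1.31 for Grik3. In Balb/c the 2 pools of 100 and the 2 of 400 averaged 6.31 and 6.41 for Grik1, 7.05 and 6.87 for Grik2, 7.43 and 6.91 for Grik3, 8.14 and 8.37 for Grik5, and 6.88 and 7.58 for Grid1.

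**Figure D4:**
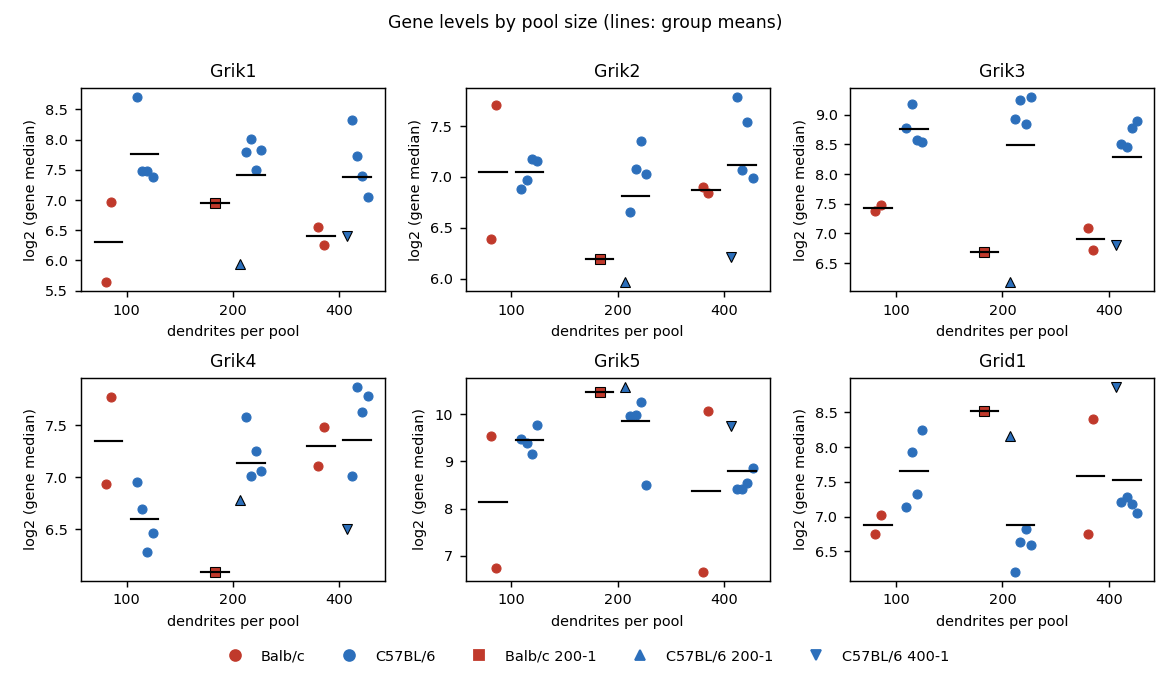
Log2 level of each gene (y axis, median of its probe sets) by the number of dendrites per pool (x axis), with Balb/c in red left of C57BL/6 in blue at each size, 1 point per array and group means as black lines. In Grik4 the C57BL/6 means are 6.60, 7.13 and 7.36 at 100, 200 and 400 dendrites, and in Grik3 the C57BL/6 arrays 200-1 and 400-1 sit among the Balb/c values.

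For roles around kainate and delta receptors, 24 further genes were analysed. Of the 24, 4 were higher in Balb/c, 3 were lower and 17 were not called, near the 21.1% of all genes that were higher and the 11.4% that were lower, with a median difference of 0.13, or -0.08 relative to the median gene.

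Of the auxiliary subunits, which slow kainate receptor currents, Neto2 was lower in Balb/c and Neto1 was not called. Neto2 averaged 5.85 ± 0.449 in Balb/c and 6.83 ± 0.609 in C57BL/6, a difference of -0.98 ± 0.299 (adjusted p = 0.0158). Its lowest C57BL/6 arrays were 400-1 at 5.34 and 200-1 at 6.02, within the Balb/c range of 5.25 to 6.41. That whole range lay below the lowest Balb/c array median of the background probe sets, 6.59. Neto1 averaged 6.67 in Balb/c and 8.01 in C57BL/6, and its difference of -1.35 ± 0.559 did not pass (adjusted p = 0.0672).

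Of the C1q-like proteins, which gather kainate receptors at mossy fibre synapses, C1ql2 was higher in Balb/c, at 6.35 ± 0.977 against 5.33 ± 0.535 in C57BL/6 (difference 1.02, adjusted p = 0.0228), and C1ql3 was not called (-0.59, adjusted p = 0.107). Both C1ql2 means lay below the lowest array median of the background probe sets in their strain, 6.59 in Balb/c and 5.72 in C57BL/6. Those background probe sets themselves had a median difference of 0.66. None of the 7 delta receptor binding proteins measured, the 4 cerebellins among them, was called. Cbln2 had the largest difference of these, 0.93 ± 0.403 (adjusted p = 0.0805).

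Of 10 genes for scaffolds, trafficking and turnover, 2 were higher, 1 lower and 7 not called, also near the share of all genes. Cask, a scaffold kinase, was lower in Balb/c, at 7.05 ± 1.16 against 8.38 ± 0.528 in C57BL/6 (difference -1.33, adjusted p = 0.00783). In Cask, C57BL/6 200-1 and 400-1 stood at 8.94 and 9.27, at the upper end of their strain and away from Balb/c, which reached 8.10. Klhl17, an adaptor that targets GluK2 for degradation, was higher in Balb/c by 0.67 ± 0.219 (adjusted p = 0.0232). Kif17, a kinesin that carries glutamate receptor cargo into dendrites, was higher by 0.87 ± 0.323 (adjusted p = 0.0422), and C57BL/6 200-1 at 8.25 and 400-1 at 7.83 lay within the Balb/c range of 7.03 to 8.42. Of the 3 modifying enzymes measured, Prkca was lower in Balb/c (-0.89 ± 0.292, adjusted p = 0.0232), Camk2a was higher (0.69 ± 0.214, adjusted p = 0.0174), and Adarb1, which edits glutamate receptor transcripts, was not called (0.21, adjusted p = 0.498). In Prkca, C57BL/6 200-1 at 7.41 and 400-1 at 6.96 lay within the Balb/c range of 6.66 to 7.51.

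Correlations between members across the 14 C57BL/6 arrays depended on 200-1 and 400-1. Pearson's r between gene levels was 0.77 for Grik1 and Grik3, 0.70 for Grik2 and Grik3 and 0.65 for Grik1 and Grik2. Over the 12 arrays without that pair these values were -0.013, -0.40 and 0.0027. The probe sets of a single gene did not vary together either. Over the 14 arrays their r was 0.23 in Grik1, -0.17 in Grik2, 0.19 in Grik3 and -0.11 in Grid1. Over the 12 it was -0.37, 0.0017, -0.75 and -0.19, so that these gene levels averaged unlike probe sets. All these values describe arrays that share amplification, scale and background, and no test was made.

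The genes most like each member over the 14 arrays depended on that pair to unequal extents. For Grik3 they were Gm2762 (r = 0.95) and Zfp617 (r = 0.93), with 0.34 and 0.21 over the 12 arrays. For Grik5 they were Zfp687 and Cpa4, at 0.94 and 0.91 over 14 arrays and 0.93 and 0.89 over 12. For Grik4 they were Anln and Napg, at 0.85 and 0.84 over 14 and 0.89 and 0.84 over 12. For Grik1, Egln2 and Pard6a had 0.93 and 0.93 over 14 and 0.81 and 0.79 over 12. For Grik2, Pdcd10 and Scoc had 0.91 and 0.90 over 14 and 0.69 and 0.67 over 12, and for Grid1, Fkbp9 and Dok7 had 0.91 and 0.89 over 14 and 0.80 and 0.81 over 12. These were the top 2 of 18193 genes for each member, so high values follow from the choice.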

How the data were processed

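RNA of each dendrite pool was amplified in several rounds, labelled and hybridised to an Affymetrix array of the mouse genome. For each probe set the authors deposited 1 value per array on a log2 scale (the base was inferred from their range), obtained with RMA, for which the submitters' processing notes give version 2.0. It is the upper decile of the set's probes. Centring on the median and division by the spread from the 10th to the 90th percentile, which the methods describe, are not seen in the deposited values and were run as an alternative.

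The platform annotation gives 1 gene symbol for 34945 of the 45101 probe sets, several for 932 and none for 9160, and 64 are controls. The level of a gene was the median over the sets that carry its symbol alone. No dim gene was left out, and of the members all 6 genes and 6 of 10 probe sets had a mean above the median of the means. No column was unused (0), and no 2 arrays were copies (highest correlation 0.945). No genome build is given in the sources used here for the probe sets, so coordinates are not given. For arrays, their number limits the precision.

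Strain differences (Balb/c minus C57BL/6), pool size slopes, their interaction and 400 against 100 dendrites were fitted with limma 3.58.1 in R 4.3.3 (lmFit, eBayes) over all genes and adjusted by Benjamini-Hochberg. Single genes were also tested by exact permutation over arrays. Scripts were tested on simulated data. Named genes were the 6 members and their probe sets, listed partners that were called, and for each member the 2 genes with the highest correlation over C57BL/6 arrays. Some partners that were not called are also given with values, chosen after those were seen. The members and lists were chosen with earlier results of these data known. Alternatives covered scaling, probe set choice, dim genes, pool size, number format, the variance model, the methods' t-test and leaving out arrays. Whether replicate numbers pair pools was checked in 5 pairs of equal size and number, of which 0 correlated above 0.1, so they were not paired.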

Additional observations from a re-analysis of the deposited data

Results flagged for a closer look

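Within groups of 4 or 5 arrays, 9 of 56 groups held an array far from the others by Dixon's criterion, which chance gives in about 1 group in 20. A gene level and its probe sets were counted as separate groups though they share values, so the count is only a description. Of these 9, 5 were C57BL/6 200-1 or 400-1. For the Grik3 gene level, C57BL/6 200-1 at 6.18 lay below its nearest neighbour among the pools of 200 at 8.85, and 400-1 at 6.81 lay below its nearest neighbour among the pools of 400 at 8.46. For Grik1, C57BL/6 200-1 at 5.94 lay below the next at 7.49. For Grid1, C57BL/6 400-1 lay above its neighbours, at 8.87 with the next at 7.28 for the gene level and at 10.2 with the next at 8.25 for probe set 1421569_at.

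The other 4 lay in other arrays. C57BL/6 100-1 was high for Grik1, at 8.70 with the next at 7.48 for the gene level and at 10.6 with the next at 7.98 for probe set 1427676_a_at. C57BL/6 100-3 was low for the Grik2 probe set 1425790_a_at, at 5.91 with the next at 6.20. Balb/c 200-1 was high for the Grid1 probe set 1441499_at, at 7.59 with the next at 6.44.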

How the results depend on the processing

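The count of members called for strain was 2 and the differences (log2) in Grik1 and Grik3 stayed negative, except that Grik3 read 0.043 when the brightest probe set stood for the gene, which called 0 members (Grik1 -1.29). It was 1 without probe sets that may match several transcripts (Grik1 -0.75), 1 with a variance per strain (Grik1 -1.02), 1 within pools of 100 (Grik1 -1.45, 2085 genes called in all) and 0 within pools of 400 (Grik1 -0.97, Grik3 -1.38, 3093 genes). The methods' t-test called 5694 genes after Benjamini-Hochberg adjustment, 76 of them at the study's threshold of 0.001, and 2 members. Taking number format as a block, or the long format alone, it was 0 (Grik1 -0.66, Grik3 -0.66), with Grik2 at 0.30, Grid1 at -0.54 and probe sets 1457683_at at 0.14 and 1421569_at at -1.49. With pool size and replicate number as a replicate block, which the labels do not show to be a pairing, it was 0 and 0 genes were called in all (3331 at an unadjusted p under 0.05), with Grik1 -0.89, Grik3 -0.82, Grik2 0.042, Grid1 -0.37 and 1421569_at -1.06, while 1440177_at at -1.97 lost its call (adjusted p = 0.22). The cause was not tested.

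Other values that changed sign were not called in any of these settings. Quantile normalisation gave Grik4 -0.16, Grid1 -0.010 and 1421569_at -0.054, and range scaling gave Grik4 -0.15, Grid1 -0.025, 1421569_at -0.067 and 1427709_at -0.073. Within pools of 100, Grik2 was 0.0025, Grid1 -0.78, 1421569_at -1.27 and 1441499_at -0.29, and within pools of 400, Grik4 was -0.059 and 1441499_at -0.27. Without C57BL/6 200-1 and 400-1 (chosen after seeing the data), Grik4 was -0.053 and 1427709_at -0.17. Without these and Balb/c 200-1, 1441499_at was -0.029 and the strain difference in the distance between the Grid1 probe sets was 0.24 (a description). For the Grik2 probe sets that difference kept its sign, at -1.34 (adjusted p = 0.0425 by limma) against -1.46 over all arrays (adjusted p = 0.0765). It too is given only as a description. The Grid1 slope was -0.040 in C57BL/6 alone and the Grik2 slope -0.064 with the format block.

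Leaving out each array in turn gave 1 to 2 members called, with strain differences of -1.15 to -0.81 for Grik1, -0.41 to -0.030 for Grik2, -1.11 to -0.16 for Grik5, -0.16 to 0.26 for Grik4, -0.10 to 0.34 for Grid1, -0.25 to 0.36 for 1427709_at, -0.42 to 0.44 for 1421569_at and -0.054 to 0.32 for 1441499_at. Slopes were -0.060 to 0.10 for Grik2 and -0.041 to 0.18 for Grid1, and 400 minus 100 dendrites was -0.091 to 0.30 for Grik2 and -0.47 to 0.058 for Grid1. No pool size result was called in any alternative.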

Other observations

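Grid2ip, which encodes a postsynaptic scaffold protein, stood far above the array medians, though on 1 probe set whose specificity was not tested. Its 1 probe set read 15.1 to 15.4 in Balb/c and 14.2 to 15.4 in C57BL/6, where array medians were 6.77 to 6.95 in Balb/c and 6.62 to 6.86 in C57BL/6. The difference of 0.37 ± 0.199 was not called (adjusted p = 0.154 by limma).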
